A study of Mus musculus with 3 samples.

Results

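Broad intron clusters of low counts are the stretches of intron in which many neighbouring bases each carried a few crosslinks, in a study that precipitated RNA with an antibody against the proteins Brf1/2. A member is a position in an intron of a protein-coding gene with a count of 1 or 2 whose counts within 15 nt on its strand sum to 10 or more, and Cdk8, Cmss1, Camk1d and Lars2 were left out. This gave 13855 member positions of the 462392 positions listed, and 4.67% of the 296787 low-count positions of protein-coding introns. Members up to 15 nt apart in a gene were joined into 2634 clusters in 1349 genes. Members were thus chosen by their own count and by the summed count within 15 nt, so those values are descriptions and were not tested. Cdk8, Cmss1, Camk1d and Lars2 hold 142 further positions with such values.

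The data come from individual-nucleotide crosslinking and immunoprecipitation (iCLIP), in which ultraviolet light ties a protein to the RNA it touches and the end of the copied DNA marks the base. One library was made from DCKO cells, named in the series title as a Zfp36l1 and Zfp36l2 double conditional knockout, and 2 were made from WT cells in independent experiments. All 3 came from total naive thymocytes of strain C57BL/6JBabr, irradiated with 300 mJ/cm2 and precipitated with that antibody, and the labels used here name no Cre driver. The series title speaks of pre-T cells and the labels of total thymocytes. The deposited list holds 1 pooled value per position, and no label says which libraries were pooled. DCKO and WT could therefore not be compared, there is no replicate, and all intervals are 95% intervals of counting error. They treat clusters as independent although clusters of a gene share its RNA. Intervals of shares of positions also treat neighbouring positions of a cluster as independent, so those intervals are likely too narrow.

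ZFP36L1 belongs to the ZFP36 family of zinc finger proteins, which bind AU-rich elements, typically in 3′ untranslated regions (3′ UTRs), and recruit enzymes that shorten the poly(A) tail. Introns are removed in the nucleus and are far longer than 3′ UTRs, so they hold many short uridine-rich stretches. Ultraviolet crosslinking itself favours uridine, written T in the DNA sequences here.

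Low-count clusters of several kinds are shown first because the kinds recur throughout the results. Each stretch reaches at least 15 nt beyond the outermost members and is written on the RNA strand from 5′ to 3′, in GRCm38. They are clusters with many members for their kind and no count above 4, whose strongest member GENCODE places in an intron and no exon. The strongest member of a cluster is throughout the one with the highest summed count within 15 nt, whatever its own count. Equal sums were settled by the higher own count. Fbxw7, Haus3, Smc4, Zfp592, Mapk14, Ogt and Fam120a were named after their values were seen. In the adenine-thymine tetramer repeats of Fbxw7, a ubiquitin ligase subunit, and Haus3, a spindle protein, capitals mark runs of TATTTA.
Fbxw7, chr3:84873951-84874020, plus strand: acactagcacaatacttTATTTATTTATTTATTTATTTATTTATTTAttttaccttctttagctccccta
Haus3, chr5:34159971-34160031, minus strand: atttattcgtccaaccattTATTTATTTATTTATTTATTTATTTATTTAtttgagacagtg
In the thymidine runs of Smc4, a condensin subunit, and Zfp592, a zinc finger protein, capitals mark the run.
Smc4, chr3:69026065-69026127, plus strand: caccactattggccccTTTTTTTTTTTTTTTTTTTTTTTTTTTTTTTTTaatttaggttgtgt
Zfp592, chr7:81031527-81031579, plus strand: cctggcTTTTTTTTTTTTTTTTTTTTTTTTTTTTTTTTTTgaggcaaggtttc
In the repeats of Themis, a T cell receptor signalling protein of thymocytes, Mapk14, the kinase p38 alpha, and Ogt, the enzyme that adds N-acetylglucosamine to proteins, capitals mark the repeated unit with a leading thymidine.
Themis, chr10:28838865-28838927, plus strand: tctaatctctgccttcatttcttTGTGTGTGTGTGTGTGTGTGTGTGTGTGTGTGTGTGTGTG
Mapk14, chr17:28695818-28695880, plus strand: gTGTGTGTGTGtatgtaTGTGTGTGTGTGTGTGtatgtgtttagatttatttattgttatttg
Ogt, chrX:101655117-101655189, plus strand: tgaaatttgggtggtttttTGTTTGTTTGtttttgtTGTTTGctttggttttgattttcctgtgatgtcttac
A second Themis cluster and a cluster in Arpp21, a phosphoprotein of immature thymocytes, held TATTTA (capitals) with no tandem repeat by the measure below.
Themis, chr10:28753990-28754061, plus strand: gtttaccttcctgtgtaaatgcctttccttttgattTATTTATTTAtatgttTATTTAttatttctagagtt
Arpp21, chr9:112213211-112213273, minus strand: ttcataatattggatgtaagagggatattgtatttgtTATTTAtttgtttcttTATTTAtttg
Clusters in Ptprc, which encodes the phosphatase CD45, and Fam120a lay beside a 3′ splice site, whose AG is in capitals.
Ptprc, chr1:138094299-138094350, minus strand: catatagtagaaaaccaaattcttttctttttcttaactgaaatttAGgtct
Fam120a, chr13:48885876-48885951, minus strand: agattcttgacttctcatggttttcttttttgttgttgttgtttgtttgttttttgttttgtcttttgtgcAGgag

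The Fbxw7 cluster spread 14 members over 40 nt, with 3 listed positions of count 1, 11 of count 2 and 2 of count 3. No base of it stood out, and its summed count was 31. The Smc4 cluster had 16 members over 33 nt, with 12 positions of count 1, 4 of count 2 and 2 of count 3. In the Zfp592 run, 11 positions had a count of 1 and 5 had a count of 2. The Themis guanine-thymine repeat had 19 members over 33 nt, with 11 positions of count 1, 8 of count 2 and 2 of count 3. The Mapk14 repeat had 4 positions of count 1, 10 of count 2 and 2 of count 3. The GTTT repeat of Ogt was among the widest shown, with 20 members over 43 nt and no count above 4. The Haus3 cluster held 5 positions of count 1, 8 of count 2, 1 of count 3 and 5 of count 4. The Arpp21 cluster was also less even, with 5 positions of count 1, 8 of count 2, 2 of count 3 and 4 of count 4. At the splice sites, the strongest member lay 20 nt before the exon in Ptprc, in a cluster of 8 members, and 39 nt before it in Fam120a, in one of 12 members. In each of these clusters the counts were spread over many bases and no count exceeded 4.

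**Figure D1:**
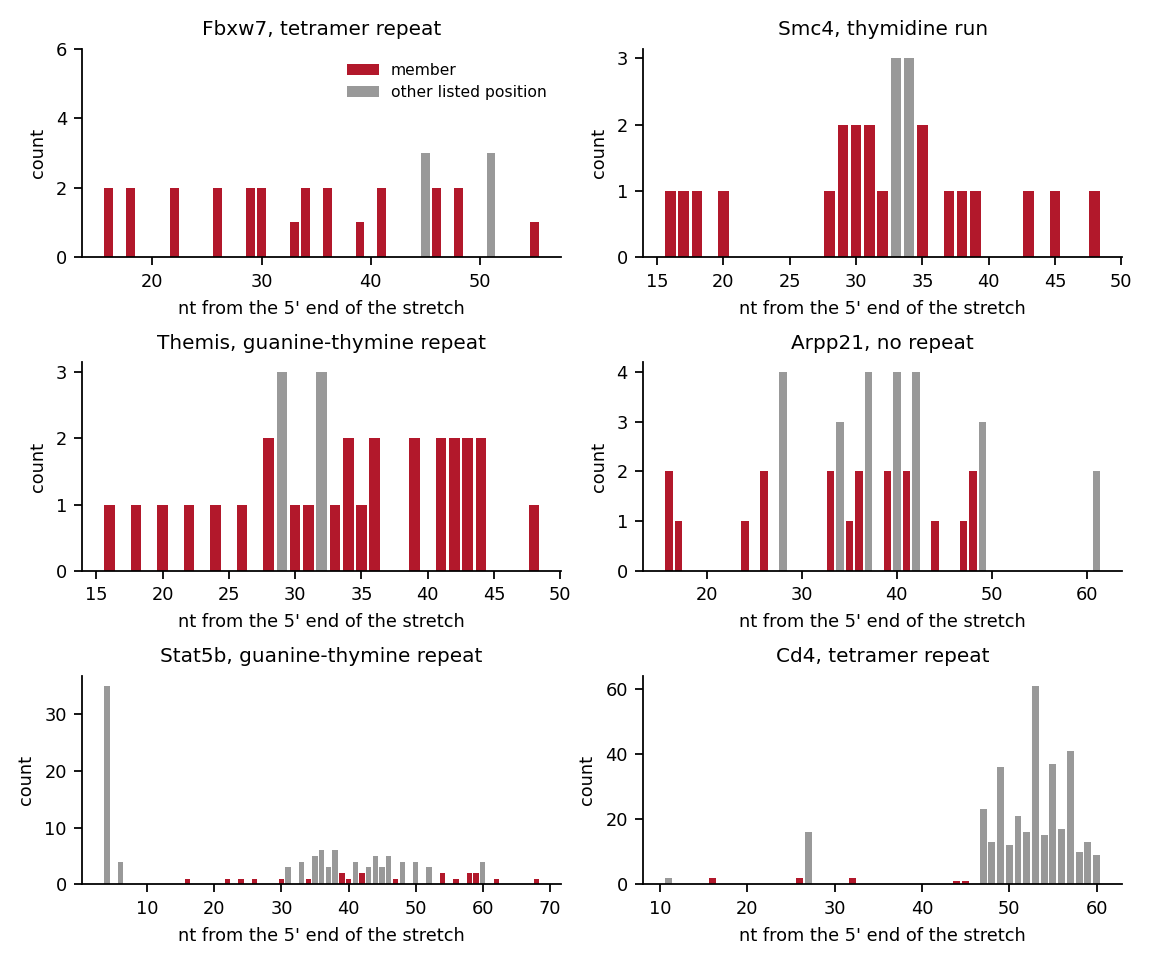
Count (vertical axis) at each listed position against its distance in nt from the 5′ end of the stretch, for 6 clusters, with members in red and other listed positions in grey. Fbxw7, Smc4, Themis and Arpp21 have no count above 4, whereas single positions reach 35 in Stat5b and 61 in Cd4 and the members there are the low positions around them.

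The label of broad clusters of low counts described most members and not all. The values here come from the counts that the rule used, so they describe the members and do not test the label. A median of 8 listed positions lay within 15 nt of a member, itself included, and the highest of them held a median of 20% of the counts there. The highest neighbour held 50% or more of the counts for 3.91% of members. A position with a count of 5 or more nevertheless lay within 15 nt of 33.0% of members (32.2 to 33.8), and one of 10 or more within 15 nt of 9.07%. These members are low positions beside stronger ones, and 81.2% of the 2651 intron positions with a count of 5 or more had a member that near. In 3′ UTRs, 46.2% of positions with the same values lay beside a count of 5 or more.

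Clusters had a median span of 13 nt, with a range of 1 to 86 nt, and a median of 5 members. Their summed count, 15 nt on either side included, had a median of 14 and a range of 10 to 443. The highest count was 4 or less in 64.4% of clusters (62.6 to 66.2) and 2 or less in 22.9%, and 12.3% had 1 member. At the threshold, 1943 members had a summed count within 15 nt of 10 and 1576 had 11. Just outside it, 2516 low-count positions had 9 and 3424 had 8, so the limit falls within a continuous range. A count of 2 stood at 66.5% of members and at 45.5% of the other low-count intron positions. In protein-coding introns a count of 1 stood at 51.6% of positions, 2 at 44.7% and 3 at 1.54%, and 6 was more common than 5 (0.243% against 0.224%). How the authors' counting gave this pattern was not tested, and a count of 2 is not read here as stronger signal than a count of 1.

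**Figure D2:**
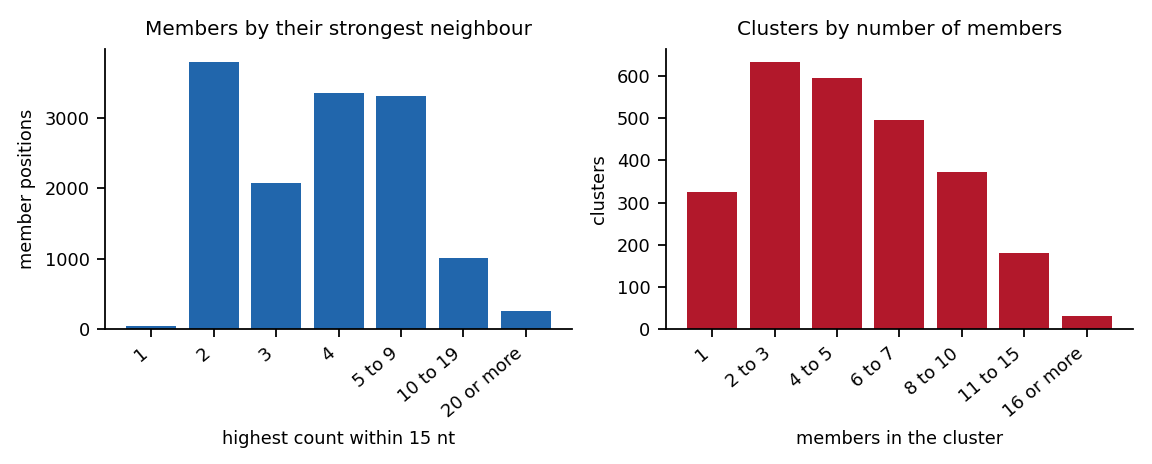
Left, number of member positions (vertical axis) by the highest count within 15 nt. Right, number of clusters by the number of members they hold. Counts of 2 to 4 were the highest neighbour of most members, 251 members lay beside a count of 20 or more, and 325 clusters held a single member.

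The sequences around the clusters were rich in uridine stretches of distinct kinds. Within 20 nt of the strongest member of each cluster, TATTTA, a short form of the AU-rich element, occurred in 37.5% of clusters (35.6 to 39.3), and the run TTTTTT occurred in 38.8% (37.0 to 40.7). Either motif was present in 69.4% and both in 6.95%, so the motifs marked largely separate clusters. The longer TTTATTTA occurred in 29.7% of clusters. Motifs were sought on the RNA strand, and they overlap one another within repeats.

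These motifs were local to the clusters and to the RNA strand. At 300 nt downstream of the same clusters, TATTTA occurred in 2.89% of windows, and at 300 nt upstream in 3.0%. The difference from the downstream windows was 34.6 percentage points (32.6 to 36.5). This interval treats both shares as independent, although the moved windows belong to the same clusters. On the opposite strand of the clusters themselves it occurred in 0.911%. For TTTTTT the clusters' 38.8% stood against 4.78% downstream, 4.56% upstream and 1.33% on the opposite strand, and the difference from downstream was 34.1 points (32 to 36.1). Among hexamers in at least 50 clusters, ATTTAT had the highest ratio to the flanking windows (13.8), followed by TATTTA (12.7) and TTTTTT (8.32).

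The clusters differed from the other low-count intron positions. TATTTA occurred in 37.5% of clusters and in 7.40% of groups of other low-count positions, a difference of 30.1 points (28.2 to 31.9). For TTTTTT the shares were 38.8% and 16.1%, with a difference of 22.7 points (20.9 to 24.6). For the guanine-thymine hexamer TGTGTG they were 13.1% and 7.69%, with a difference of 5.41 points (4.17 to 6.75). The hexamer TAAATA, which is TATTTA read on the opposite strand, was rarer in the clusters, at 0.911% against 1.68%.

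Against intron positions with a count of 5 or more, the clusters shared the AU-rich motif and differed in thymidine runs. These 2651 strong positions formed 1409 groups, many beside a member, so the sets share regions. TATTTA occurred in 37.5% of the clusters and 37.9% of the strong groups, a difference of -0.43 points with an interval of -3.58 to 2.69. TTTTTT was more frequent in the clusters, with 38.8% against 21.8% and a difference of 17.0 points (14.2 to 19.8). CTTTCT, a pyrimidine motif, was less frequent, with 9.15% against 14.4% and a difference of -5.26 points (-7.45 to -3.17). Against 3′ UTR clusters of the same values, TATTTA occurred in 37.5% and 34.2%, a difference of 3.23 points (-0.16 to 6.55). The longer TTTATTTA separated these sets, with 29.7% in the intron clusters and 10.4% in the 3′ UTR clusters, a difference of 19.4 points (16.8 to 21.8).

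**Figure D3:**
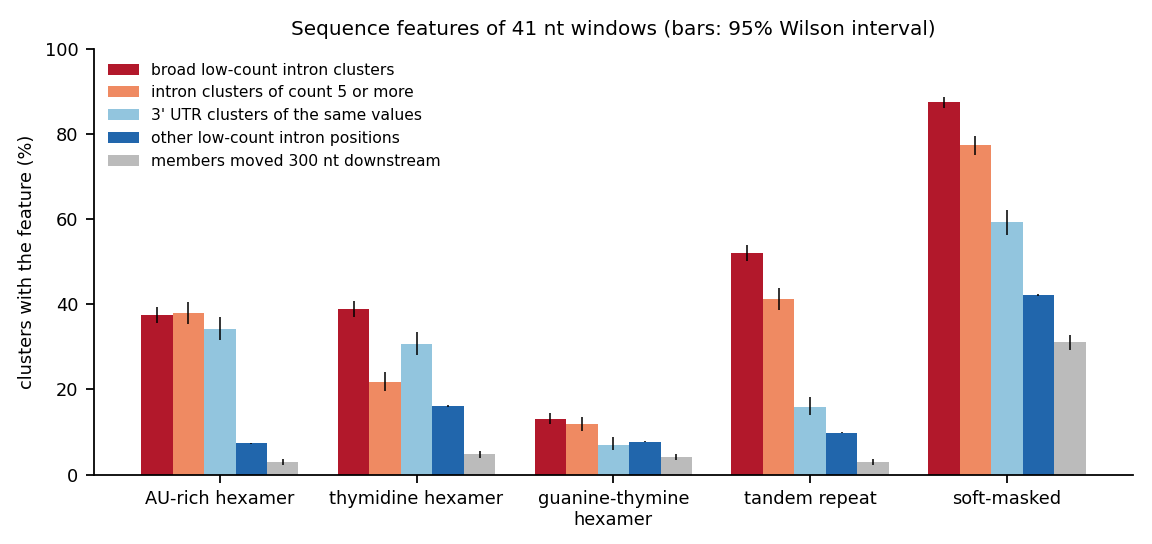
Share of clusters (vertical axis, percent) whose 41 nt window holds each sequence feature, or whose strongest member is soft-masked, with 95% Wilson intervals. The AU-rich hexamer stands at 37.5% in the broad low-count clusters and 2.89% in the same windows moved 300 nt downstream, and the tandem repeats at 52.1% and 2.89%.

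The crosslinked base was most often thymidine. It stood at 73.9% of member positions (73.2 to 74.6) and at 59.2% of the other low-count positions, a difference of 14.6 points (13.9 to 15.4). Cytidine showed the opposite order, at 7.69% of members and 17.3% of the others. Strong intron positions had thymidine at 75.1%, which differed from the members by -1.17 points with an interval of -2.94 to 0.66. The share was 73.1% for members with a count of 1 and 74.3% for those with a count of 2, with overlapping intervals. In the moved windows, a thymidine stood at the central base of 32.5% downstream, against 73.6% at the strongest member of the clusters.

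Many of the clusters lay at simple tandem repeats. A repeat was called where a unit of 1 to 6 nt recurred without interruption over at least 15 nt of the window. It was found in 52.1% of clusters (50.1 to 54.0), in 2.89% of windows 300 nt downstream and in 9.86% of groups of other low-count positions. The difference from the other low-count positions was 42.2 points (40.3 to 44.1). Strong intron groups had 41.2% and 3′ UTR clusters of the same values 15.9%. The reference sequence was soft-masked, which marks interspersed and simple repeats, at the strongest member of 87.4% of clusters, against 42.1% of the other low-count groups. The 41 nt window of 2.85% of clusters recurred in another cluster, and copies elsewhere in the genome were not counted. How reads that match several repeats were placed is unknown here, and its part in these shares was not tested.

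Of 1371 clusters with a tandem repeat, 3 units held most. The tetramer ATTT was the unit in 492 clusters (18.7%), a single thymidine in 402 (15.3%) and the dimer GT in 172 (6.53%). Other units were each found in at most 50 clusters, led by GTTT (50), CTTT (31) and CT (27). Repeats without thymidine on the RNA strand were rare. The tetramer AAAT, which is ATTT on the opposite strand, was the unit in 0 clusters, which allows a share of up to 0.114%, adenine runs in 5 and AC in 3.

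The kinds of repeat differed in the height of their clusters. Thymidine runs gave flat clusters, with no count above 4 in 85.3% (81.5 to 88.4). The share was 72.1% in GT repeats and 48.2% in ATTT repeats. Thymidine runs exceeded ATTT repeats by 37.2 points (31.3 to 42.5) and GT repeats by 13.2 points (5.99 to 21.0). ATTT clusters were also the widest, with a median span of 18 nt against 12 nt in thymidine runs and 14 nt in GT repeats. Their tracts had a median length of 32 nt, against 22 nt for thymidine runs and 33 nt for GT. The sum and height of counts entered the rule, so these differences describe members of the list and not all crosslinks in such tracts.

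Within ATTT tracts the counts kept step with the repeat. Each of the 4 bases made up between 24.5% and 25.3% of 471 tracts. The thymidine just before the adenine held 46.9% of the summed count, the thymidine just after it 24%, the middle thymidine 16.4% and the adenine 12.6%. The same order held in the share of bases with any listed position, 41.3%, 27.4%, 21.9% and 18.6%, which does not depend on a few high counts. Among members alone the steps were smaller, 30.9%, 25.1%, 23.2% and 20.8%, since positions of higher count are not members. In 50 GTTT tracts the thymidine just after the guanine held 58.3% of the summed count, and in 171 GT tracts thymidine held 74.8% and guanine 25.2%.

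Within thymidine runs the members lay toward the 5′ end. Of 2827 members of such clusters, 82.1% lay inside the run, 15.5% before it and 2.37% after it. With the run split into 3 equal stretches, the 5′ stretch held 42.4% (40.6 to 44.3), the middle one 29.7% and the 3′ one 9.94% (8.89 to 11.1). Reads that start inside a run can be placed at several of its bases, and the part of this in the order was not tested.

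Most repeat tracts in introns carried no cluster. All tracts of at least 15 nt were counted in introns of genes with 50 or more listed intron positions, a limit chosen after the data were seen. A member lay on or within 5 nt of 10.5% of 3989 ATTT tracts (9.57 to 11.5), of 2.91% of 10332 thymidine runs and of 1.14% of 14743 GT tracts. Over all genes with a listed intron position the shares were 3.7% of 14719 ATTT tracts, 1.1% of 35549 thymidine runs and 0.302% of 67273 GT tracts, in the same order. In the genes with more positions, ATTT tracts exceeded thymidine runs by 7.57 points (6.59 to 8.60), and thymidine runs exceeded GT tracts by 1.77 points (1.42 to 2.15). The share for ATTT grew with tract length, from 3.57% of tracts of 15 to 19 nt and 16.2% of 20 to 29 nt to 31.5% of 30 to 49 nt and 33.3% of 50 nt or more. For thymidine runs it was 1.95%, 4.28% and 4.88% over the first 3 of these lengths, and the intervals of the last 2 overlap. For GT tracts it stayed between 0.729% and 1.34%.

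Tracts with these repeats on the opposite strand of the gene were almost bare of members. They are other tracts, at other places, that read AAAT, A or AC on the RNA strand. A member lay at 0 of 2165 AAAT tracts, which allows up to 0.139%, at 3 of 5265 adenine runs and at 3 of 10468 AC tracts. The ATTT share exceeded that of AAAT by 10.5 points (9.55 to 11.5). A listed position of any value lay at 30.2% of ATTT tracts and 2.03% of AAAT tracts.

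**Figure D4:**
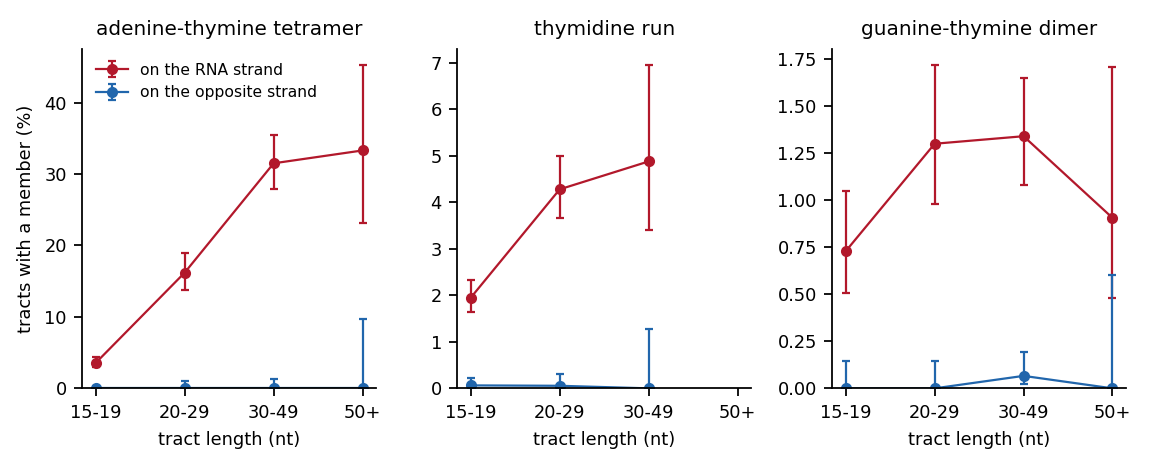
Share of intron tracts with a member (vertical axis, percent, different scale in each panel) by tract length in nt, with 95% Wilson intervals. Red marks tracts with the repeat on the RNA strand, and blue marks other tracts with it on the opposite strand. Lengths with fewer than 20 tracts are not drawn. The red share reaches 33.3% for the adenine-thymine tetramer and stays below 5% for thymidine runs, and the blue shares lie at or near 0.

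Some GT tracts with a member lay beside TATTTA, a survey added after the data were seen. TATTTA lay in the 30 nt upstream of 23.2% of 168 GT tracts with a member, of 4.25% of 1976 tracts with a listed position and no member, and of 2.51% of 12599 tracts with no listed position. Downstream the shares were 12.5%, 2.18% and 1.06%. The sum that chose the members includes counts on a neighbouring TATTTA within 15 nt, so these shares follow in part from the rule and are given as a description. In Trip12, a ubiquitin ligase, and Stat5b, a signal transducer of cytokine receptors, such a stretch stands just before the GT repeat, which is in capitals.
Trip12, chr1:84746915-84746949, minus strand: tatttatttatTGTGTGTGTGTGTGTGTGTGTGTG
Stat5b, chr11:100841482-100841564, minus strand: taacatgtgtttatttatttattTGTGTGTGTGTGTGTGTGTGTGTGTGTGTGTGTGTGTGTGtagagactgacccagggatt
The Trip12 cluster had 12 listed positions with a summed count of 271, and 9 of them, with counts of 4 to 72, lay in the AU-rich stretch. The 3 members lay in the GT repeat with counts of 1, 2 and 2, so they passed the rule through their neighbours. The Stat5b cluster was broader, with 16 members of 33 listed positions, a summed count of 122 and a highest count of 35. Unlike in Trip12, the highest count lay at a cytidine upstream of the AU-rich stretch. Listed positions in that stretch had a count of 1, and most others lay in the GT repeat.

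Clusters with no tandem repeat numbered 1263 (47.9%) and lay in 709 genes. TATTTA occurred in 31.3% of them, TTTTTT in 36.9% and neither in 40.5%. They held most of the clusters near the end of an intron. Within 100 nt before the 3′ splice site lay 18.7% of clusters with no repeat (16.6 to 20.9), against 2.03% of ATTT clusters (1.11 to 3.70), 7.21% of thymidine runs and 0.581% of GT clusters. The difference from ATTT clusters was 16.7 points (14 to 19.1). That region of an intron holds the polypyrimidine tract, which splicing factors bind.

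Counted as positions and not as clusters, members of all kinds lay less often near splice sites than other low-count positions did. Clusters with many members weigh more in these shares than in the shares of clusters above. GENCODE placed 98.1% of members in an intron of the named gene and 6.71% in an exon of a protein-coding transcript as well, and 91.7% in an intron only. Of these, 8.01% lay within 100 nt before a 3′ splice site, against 10.2% of the other low-count positions, a difference of -2.22 points (-2.69 to -1.72). Within 100 nt after the 5′ splice site the shares were 3.71% and 4.71%. Members lay more often in an intron that is the first of at least 1 annotated transcript, 40.6% against 34.4%, a difference of 6.22 points (5.35 to 7.09). The introns had a median length of 13963 nt for members and 10746 nt for other low-count positions. Of the strong intron positions, 7.81% lay within 100 nt before a 3′ splice site, and members differed from them by 0.206 points (-1.02 to 1.32). In a first intron lay 43.9% of strong positions, with a difference of -3.28 points (-5.43 to -1.14). Within 100 nt after the 5′ splice site lay 2.26% of them, with a difference of 1.45 points (0.707 to 2.07).

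The clusters lay mostly in genes with much intron signal. A gene had a member in 11.7% of the 11503 genes with a protein-coding intron position. By the number of low-count intron positions in the gene, this share was 0.799% with 1 to 9, 9.35% with 10 to 29, 30.9% with 30 to 99, 72.9% with 100 up to 300 and 96.6% with 300 or more. The members' share of those positions went the same way, at 0.832%, 2.69%, 4.01%, 5.48% and 8.0%. Members are part of the positions counted here, and a sum of 10 usually needs several positions close together. The rise therefore follows in part from the rule. A single cluster was found in 873 genes, and 149 genes with 20 or more members held 41.3% of all members. Intron counts follow the amount of nascent RNA and intron length as well as binding, which these data cannot tell apart.

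Satb1, an organiser of chromatin in thymocytes, had the most members by a wide margin. It held 364 members in 61 clusters, and 20.3% of its 1791 low-count intron positions were members, against 4.67% over all genes. TATTTA lay in 5 of its clusters, TTTTTT in 26, and 48 had no tandem repeat. In its intron of 17790 nt lay 17 clusters, or 0.956 per kb, and 10 lay in the intron of 25042 nt, or 0.399 per kb. The cluster with the most members of all, at chr17:51795618-51795687 on the minus strand, had 30 members among 33 listed positions and a summed count of 52, with no count above 6. It overlaps a tract of 35 nt with the unit CTTTTT.

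Transcription factors of the T lineage made up much of the top of the order. Bcl11b, needed for T lineage commitment, had 96 members in 19 clusters, and TATTTA in 1 of them. Tcf12, which encodes the E protein HEB, had 88 members in 16 clusters. Ikzf1, the factor Ikaros, had 72 members in 17 clusters. Foxp1, a forkhead factor of quiescent T cells, had 68 members in 7 clusters, 23 of them in a single GTTT cluster. Tcf7, the factor TCF1, had 62 members in 10 clusters, none with TATTTA. Cux1 and Foxn3, other transcription factors, had 91 and 63 members. Of 23 T lineage factors with an intron position, 19 had a member, and members made up 11.5% of the list's low-count positions, against 11.7% of genes and 4.67% of positions overall. The list's genes had a median of 327 low-count positions, against 7 over all genes.

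Genes of T cell receptor signalling followed. Themis, which sets signalling thresholds during thymocyte selection, had 181 members in 31 clusters, of which 8 held TATTTA and 4 were GT repeats. Camk4, a calcium-dependent kinase, had 99 members in 16 clusters, and 65.7% of them lay beside a count of 5 or more. Skap1, an adaptor that links the receptor to integrins, had 86 members in 9 clusters, of which 3 were thymidine runs and 3 GT repeats. Ptprc, named above, had 77 members in 15 clusters. In this list 18 of 28 genes had a member, against 11.7% over all genes, and members made up 8.94% of low-count positions, against 4.67%. The list's genes had a median of 121 such positions, against 7. The gene lists were chosen with earlier results of these data known, so their counts are descriptions.

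Cd4, the co-receptor of helper T cells, had a high share of members among its low-count intron positions. It held 47 members in 7 clusters, 30.7% of its 153 low-count intron positions, against 4.67% over all genes. The widest of all clusters, 86 nt with 26 members, lay in its intron of 6176 nt, with a summed count of 138 and a highest count of 21. An ATTT tract of 40 nt, shorter than the cluster, lay within 20 nt of the cluster's strongest member. A pair of clusters in the Cd4 intron of 2379 nt had summed counts of 350 and 245. Their highest counts were 61 and 41, with 5 and 4 members. These clusters lie so close that positions between them, the one with 41 included, enter both sums. The remaining 4 clusters had no tandem repeat and summed counts of 11 to 15. Capitals mark runs of TATTTA in the stretch around the cluster with a summed count of 350.
Cd4, chr6:124868399-124868458, minus strand: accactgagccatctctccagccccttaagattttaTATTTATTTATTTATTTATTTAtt

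Cell cycle and RNA regulators were also among the 20 genes with the most members. Ccnd3, the D-type cyclin of thymocyte proliferation, had 179 members in 37 clusters, with 26 clusters in its intron of 73422 nt. Cdk17, a cyclin-dependent kinase, had 51 members, and 3 of its 9 clusters were ATTT repeats. Cnot2, a subunit of the CCR4-NOT deadenylase complex, had 61 members, and 7 of its 11 clusters held TATTTA. Hnrnpa2b1, which encodes a nuclear RNA-binding protein, had 72 members among 176 low-count intron positions, or 40.9%. Its 10 clusters lay in short introns, with 6 of them in an intron of 1355 nt. Of 25 RNA-binding protein genes with an intron position 13 had a member, as did 22 of 29 chromatin regulators, with 7.93% and 6.22% of low-count positions, against 11.7% of genes and 4.67% of positions overall. These lists had medians of 69 and 185 low-count positions per gene, against 7 over all genes. After Hnrnpa2b1 the RNA-binding list was led by Pum2, a Pumilio protein, with 43 members, and Mbnl1, a Muscleblind splicing regulator, with 40. The chromatin list was led by Chd1, a chromatin remodeller, with 44 members and Arid1a, a subunit of the BAF remodelling complex, with 43.

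The other genes among the 20 were Glcci1, a glucocorticoid-induced transcript, with 115 members, Znrf1, a ubiquitin ligase, with 95, Arpp21 with 85 and Ssbp2, a single-stranded DNA binding protein, with 74. The kinds of cluster differed between these genes. Foxn3 had 4 GT repeats among 10 clusters, Glcci1 had 19 clusters with no repeat among 24, and Skap1 had 1 among 9.

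**Figure D5:**
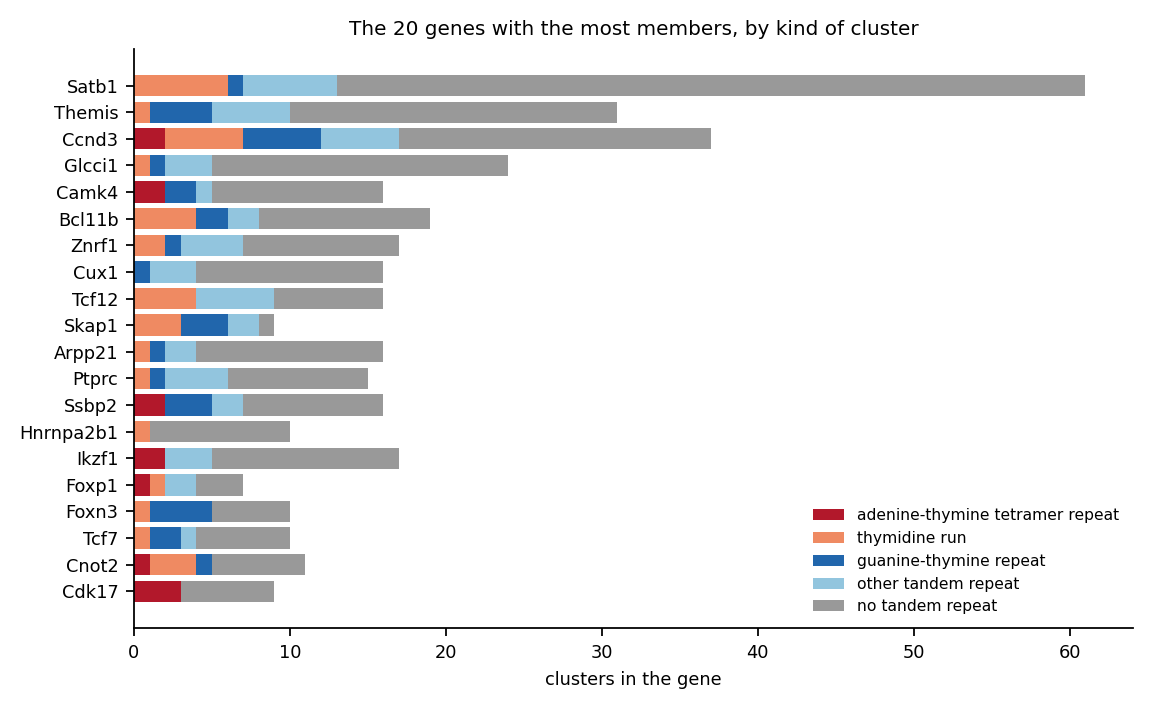
Number of clusters (horizontal axis) in each of the 20 genes with the most members, by kind of sequence. Satb1, at the top, has 61 clusters, 48 of them with no tandem repeat, and the adenine-thymine tetramer repeat appears in 7 of the 20 genes.

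The clusters with the highest summed counts were surroundings of strong positions. Hdac7, a histone deacetylase of thymocytes, led with 443 counts over 24 listed positions, of which 1 was a member and the highest 57. Eya3, a phosphatase and transcriptional coactivator, had 428 counts around 3 members at a thymidine run. Il6st, which encodes the shared receptor subunit gp130, combined height and breadth, with 23 members, 55 listed positions, a summed count of 373 and a highest count of 46. Capitals mark runs of TATTTA in it, and a GT repeat follows downstream.
Il6st, chr13:112493268-112493372, plus strand: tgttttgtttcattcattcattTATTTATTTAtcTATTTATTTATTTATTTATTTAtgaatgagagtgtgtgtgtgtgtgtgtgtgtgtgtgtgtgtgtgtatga
Among the 15 highest clusters, the window around the strongest member held an ATTT repeat in Hdac7, Il6st, Cd4, Wasf2, Mad1l1 and Smg1, a thymidine run in Eya3 and Aptx, and no repeat in Camk4. In Trip12 it held the GT repeat, while the high counts lay upstream of it, as described above.

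The remaining lists had fewer low-count intron positions per gene than the lists above. The median was 12 for very long neuronal genes and 4 for ribosomal protein genes, against 7 over all genes. Of 14 AU-rich cytokine and immediate early genes with an intron position 1 had a member (7.14%, 1.27 to 31.5), against 11.7% over all genes. This was Pim1, a kinase gene, with 6 members among its 10 low-count positions. Members made up 3.85% of the list's low-count positions, against 4.67% over all genes. The list's median was 3 low-count positions per gene, which leaves little room for a sum of 10. Of 23 very long neuronal genes 3 had a member (13.0%, 4.54 to 32.1), against 11.7% over all genes, and members made up 3.01% of their low-count positions. Of 66 ribosomal protein genes 3 had a member (4.55%, 1.56 to 12.5), and members made up 6.59% of their low-count positions, against 4.67% over all genes.

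Of 10 T lineage markers with an intron position 8 had a member, led by Bcl11b, Cd4 and Rag1, against 11.7% over all genes, with a median of 58 low-count positions per gene. B cell, myeloid, thymic epithelial and erythroid markers had almost no intron positions. There were 4 low-count positions over 2 B cell markers, 11 over 4 myeloid markers, 3 over 2 thymic epithelial markers and 1 in 1 erythroid marker. None of these had a member, and so few positions could hardly give one. Of 3 stromal and endothelial markers, Pecam1 had 3 members among 171 low-count positions, or 1.75%, against 4.67% over all genes.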

How the data were processed

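The iCLIP libraries, 1 of DCKO and 2 of WT thymocytes, are represented by a single list deposited by the authors, with no library column, so depth per library is unknown and the listed counts sum to 814493. The submitters' processing notes list Bowtie and GRCm38 with no version, and other steps are not given in the sources used here. Per the file headers, each position carries a deposited score, a count with the strand as its sign, and a second deposited score, the sum of counts within 15 nt. Its recomputation gave the same value at 99.6% of members. A deposited p-value and a deposited false discovery score were not used. The design had allowed for columns per library, and 0 were found.

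Positions in the file count from 0. Read from 0, positions labelled intron fell on the last base of an exon 9 times, and read from 1, 170 times. Coordinates are printed counting from 1. Members and gene lists were chosen with earlier results of these data known. Members of a gene up to 15 nt apart formed clusters. Windows of 20 nt on either side of the strongest member were read from GRCm38.p6, with the same windows moved by 300 nt. Introns came from GENCODE M21, taking the shortest intron that holds a position. Of the member genes, 1284 had a current symbol, 47 were updated and 18 had no match. Shares have Wilson and differences Newcombe intervals at 95%. The Newcombe intervals treat both shares as independent, also where windows belong to the same clusters or the sets share regions. Named genes were the 20 with the most members, the 15 clusters with the highest sums, the 5 with the most members and the 5 widest, up to 3 genes per list and 3 clusters for each of 5 repeat units. The genes shown for low-count sequences are named outside this rule. On simulated data, 200 of 200 clusters and 383 of 383 planted repeats were recovered. Python 3.11.15, numpy 2.4.6 and pandas 2.3.3 were used. Alternatives changed the rule, the joining distance, the window and the repeat length. The repeat lengths of 12 and 20 nt, the removal of the 20 leading genes, the tract counts and the TATTTA search beside GT tracts were added after the data were seen. Some named items that the rule would include are not reported here.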

Additional observations from a re-analysis of the deposited data

How the results depend on the processing

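No paired analysis was possible because the list names no library, and no replicate could be left out. Of 101 alternative values, 46 stayed within 1.5 times a main count or inside the interval of a main share, and 55 moved. With a summed count of 15 or more, 7162 positions in 1187 clusters and 731 genes remained in the rule, with 54.3% beside a count of 5 or more, TATTTA in 46.7%, TTTTTT in 36.5%, a tandem repeat in 59.9% and soft-masked sequence in 89.6%. With 20 or more, 4619 positions in 740 clusters and 505 genes met it, with 71.1%, 52.3%, 33.6%, 63.2% and 90.3% for these shares and thymidine at 72.1% of positions. Positions of count 2 alone numbered 9211, with 34.2% beside a count of 5 or more. Positions of count 1 alone numbered 4644, with 30.6% beside such a count, TTTTTT in 42.3%, a repeat in 58.6%, soft-masked sequence in 89.3% and thymidine at 73.1%. Members with no count of 5 or more within 15 nt, 0% beside one by construction, had TATTTA in 34.3%, TTTTTT in 43.6%, a repeat in 54.7%, soft-masked sequence in 89.4% and thymidine at 77.0%. Taking 1 cluster per gene gave TATTTA 46.3%, a repeat 60.9%, soft-masked sequence 91.8% and thymidine 74.8%. Clusters outside soft-masked sequence had TATTTA in 19.9%, TTTTTT in 9.67%, a repeat in 0.604% and thymidine at 52.3%, and the mask removes simple repeats by its construction. With 30 nt on either side, TATTTA stood in 46.4%, TTTTTT in 42.9% and a repeat in 59.9%. With 10 nt these were 26.3%, 33.1% and 33.1%, since a shorter window holds fewer motifs. Joining members up to 5 nt apart gave 4475 clusters, TATTTA in 41.1% and TTTTTT in 35.7%. Positions in a reference intron and no protein-coding exon had soft-masked sequence in 88.9% of clusters. Among alternatives chosen after seeing the data, a repeat of at least 12 nt stood in 67.6% of clusters and one of at least 20 nt in 34.3%. Without the 20 genes with the most members, TATTTA stood in 40%, a repeat in 54.7%, soft-masked sequence in 88.9% and thymidine at 74.8%. The cause of these moves was not tested where none is given.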

Other observations

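Soft-masked blocks, the runs of reference sequence marked as repeats, were compared with the place of the clusters. Of 934 clusters with no tandem repeat inside such a block, the strongest member lay within 30 nt of the 5′ end of the block in 71.4% and within 30 nt of its 3′ end in 39.5%. For the 490 ATTT clusters in a block these shares were 50% and 26.1%, for thymidine runs 60.7% and 41.8% and for 172 GT clusters 36.0% and 26.2%. In short blocks a position can count at both ends. Of ATTT clusters, 13.7% lay near the 5′ end of a block of 100 nt or more and 1.43% near its 3′ end. GT clusters did not show this order, with 4.65% and 5.23%.

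Members at small RNA genes were counted, and the same was not counted for the other low-count intron positions. All 10 members at one (0.0722% of members) lay in Rpl3, a ribosomal protein gene, at the place GENCODE gives to Snord43, and formed 1 cluster with a summed count of 24. Rps3a1, another ribosomal protein gene, had 11 members in 1 thymidine run, which were 64.7% of its 17 low-count intron positions. Rag1, a subunit of the recombinase of receptor genes, had 25 members in 3 clusters, 38.5% of its 65 low-count intron positions.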
